A study of Mus musculus with 2 samples.

Results

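The genes described here are 34 listed genes of the endoplasmic reticulum (ER) stress response and of the amino acid response, followed in the somatic cells of foetal mouse gonads. They were chosen by symbol from a list of known functions, and all 34 were found among the 42422 gene identifiers of the somatic counts table. Earlier results of these data were known when the genes were chosen. Shares of all genes given beside their counts therefore describe the list and do not test it. They comprise 14 ER chaperones and folding enzymes, 5 genes of ER-associated degradation, 4 sensors and transcription factors of the unfolded protein response, and 11 genes made of ATF4 and its targets. Of these, 33 had enough counts to be tested and *Chac1*, with 0 to 20 counts per library, did not. Chaperones and ATF4 targets are reported apart.

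Embryos came from 129T2svJ Oct4-eGFP males and Swiss females. GFP marks their germ cells, and cells without GFP were collected by sorting as the somatic cells. Each sample pooled several gonads from which the mesonephros had been removed. Uncultured XX and XY cells (0 h) were taken at E12.5, the age at which every culture began. Gonads cultured with their mesonephros on membranes received vehicle (DMSO) for 24 h or 72 h in both sexes. In XY only, others received 500 nM of the FGF receptor inhibitor BGJ398 (FGFRi) or 500 nM of the MEK inhibitor PD0325901 (MEKi) for 24 h or 72 h. All cultures shared a medium with foetal calf serum, non-essential amino acids, N-acetylcysteine and beta-mercaptoethanol, which the uncultured cells did not receive. The 10 groups held 4 libraries each, in a first pool (0 h, DMSO 24 h, MEKi 24 h) and a second pool (FGFRi 24 h and all 72 h groups). For FGFRi against DMSO at 24 h and for 72 h against 24 h, the pool and the contrast cannot be told apart.

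The ER folds secreted and membrane proteins with the help of chaperones and disulphide isomerases. When unfolded proteins accumulate, the sensors IRE1 (gene *Ern1*), ATF6 and PERK (*Eif2ak3*) raise the transcription of chaperones and of the ER-associated degradation machinery, which returns misfolded proteins to the cytosol for destruction. PERK and the amino acid sensor GCN2 phosphorylate eIF2, which favours translation of the transcription factor ATF4, an activator of genes for amino acid synthesis, amino acid transport and stress adaptation. Cells that secrete much protein, as Sertoli cells of the foetal testis do, rely on the folding machinery.

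Promoter sequence was searched for response elements that were already known. The ER stress response element (ERSE), letters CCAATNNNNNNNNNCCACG on either strand, was searched from 250 bases before to 50 bases after the RefSeq gene start (build GRCm38.p6). A window was given for 31 of the 34 genes, *Hyou1*, *Manf* and *Atf6* having none. The element was present in 9 of the 31 and in 37 of all 27025 genes with a window (0.137%). All 9 were chaperone or degradation genes, 7 and 2 respectively, and none was in the ATF4 class. Genes and element were both taken from earlier knowledge of the same response, so these shares describe the list and test nothing. The shorter ERSE-II, ATTGGNCCACG, was present in *Herpud1* and, after the start, in *Dnajb11*, against 12 of all genes (0.0444%). Neither the letters TGACGTGG (0.714% of all genes) nor the C/EBP-ATF response element TGATGNAAT (1.08% of all genes) was found in any of the 31 windows. A match describes letters in a window and says nothing of binding or use. The lack of a match holds only for these exact letters in these windows. Other spellings of an element and sites further away were not searched. The stretches with an element before the start are shown because they set chaperone and degradation genes beside each other, and that of *Dnajb11*, which lies after its start, is not. They run 5′ to 3′ on the gene's strand, with the element in capitals and 20 bases on each side, and *Hsp90b1* holds 2 elements. Positions are chr2:34772005-34772063 for *Hspa5* (plus strand), chr10:86705513-86705676 for *Hsp90b1* (minus strand), chr8:84847055-84847113 for *Calr* (minus strand), chr11:50325780-50325838 for *Canx* (minus strand), chr12:17266471-17266529 for *Pdia6* (plus strand), chr15:88819500-88819558 for *Creld2* (plus strand), chr14:118937807-118937865 for *Dnajc3* (plus strand), chr10:75893222-75893280 for *Derl3* (plus strand), chr19:6046512-6046570 for *Syvn1* (plus strand) and chr8:94386357-94386407 for the ERSE-II of *Herpud1* (plus strand).
Hspa5: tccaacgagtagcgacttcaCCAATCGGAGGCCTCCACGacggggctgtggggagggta
Hsp90b1: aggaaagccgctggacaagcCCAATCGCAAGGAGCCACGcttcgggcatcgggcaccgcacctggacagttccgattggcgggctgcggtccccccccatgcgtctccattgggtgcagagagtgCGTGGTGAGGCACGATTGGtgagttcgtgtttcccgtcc
Calr: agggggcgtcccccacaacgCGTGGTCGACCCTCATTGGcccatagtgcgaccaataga
Canx: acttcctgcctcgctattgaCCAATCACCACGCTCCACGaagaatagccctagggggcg
Pdia6: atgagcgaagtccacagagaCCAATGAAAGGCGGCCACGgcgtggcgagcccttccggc
Creld2: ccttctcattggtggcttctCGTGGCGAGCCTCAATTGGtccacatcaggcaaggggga
Dnajc3: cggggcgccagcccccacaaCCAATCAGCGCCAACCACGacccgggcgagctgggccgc
Derl3: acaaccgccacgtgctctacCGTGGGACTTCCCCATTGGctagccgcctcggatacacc
Syvn1: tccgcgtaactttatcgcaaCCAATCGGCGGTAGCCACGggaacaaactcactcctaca
Herpud1: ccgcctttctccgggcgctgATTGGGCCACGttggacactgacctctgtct

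Depth was 1380707 to 4836550 counts per library (median 2248854), and all values below are CPM, the usual rate of a gene's count relative to its library size, with sizes scaled by TMM. Because the libraries count 3′ ends of transcripts, levels are compared between groups and not between genes. A gene was called when its FDR from edgeR's quasi-likelihood test, adjusted over 15125 genes, was below 0.05 and its fold change was at least 1.5. Where a call is said to be lost, or made, without the libraries named, each of them was left out alone. The gonadal somatic markers *Nr5a1*, *Wt1* and *Gata4* were present in every library. *Foxl2*, a pre-granulosa gene, was at 48.3 to 104 CPM in uncultured XX and 0.569 to 1.54 CPM in uncultured XY cells. *Sox9*, a Sertoli gene, was at 55 to 156 and 634 to 692 CPM. Germ cell markers were low but not absent. In bulk RNA of this kind, fewer cells of a type and less RNA per cell cannot be told apart. One MEKi 24 h library, M2, is named for that group in the table and the library list but not in the sample description. Without it the number of the 34 genes called with MEKi at 24 h was also 0. Of the genes described, *Manf* shares 6511 bases on the same strand with Rbm15b, and *Hsp90b1*, *Dnajc3*, *Sesn2*, *Slc7a11* and *Ddit3* overlap long non-coding RNAs of the same strand, so counts of these 6 could be split or shared.

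In uncultured cells, XX had lower levels of most ER chaperones than XY. Of the 33 tested genes, 12 were lower in XX (9.32% of all tested genes were) and 4 were higher (8.01% of all). Among the 14 chaperones and folding enzymes, 9 were lower and 1, *Dnajb9*, was higher. At FDR alone 13 of the 14 differed (23% of all genes), of which 12 were lower. The 4 XX and 4 XY libraries did not overlap for 12 of the 14 (22.8% of all genes), and for 11 of these XX lay below. The median log2 fold change of the 14 was -0.64, against -0.01 over all genes. Summed over the 14, the levels were 3691 to 4137 CPM in XX and 5838 to 6963 CPM in XY.

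*Hspa5* encodes BiP, the main ER chaperone (ENSMUSG00000026864.13, GRCm39 chr2:34661982-34668880, plus strand). Its levels were 732, 622, 686 and 589.9 CPM in the XX libraries and 1086, 1157, 991 and 920.5 CPM in the XY libraries before culture. Every XX library was below every XY library, and the means were 657 ± 63.9 and 1039 ± 104 CPM (SD, n = 4; log2 fold change -0.66, SE 0.09, edgeR FDR = 3.77e-08). *Hsp90b1*, which encodes the ER member of the HSP90 family, was at 854, 1006, 961 and 805 CPM in XX and 1717, 1773, 1499 and 1439 CPM in XY (log2 fold change -0.83, SE 0.117, edgeR FDR = 9.62e-08). Again no library of one sex reached the range of the other. *Calr* encodes calreticulin, which with calnexin holds newly made glycoproteins. It was at 453, 425, 379 and 485 CPM in XX and at 767, 819, 843 and 760.5 CPM in XY (log2 fold change -0.87, SE 0.11, edgeR FDR = 6.77e-09). Its partner *Canx* was also lower in every XX library, but under the fold threshold (log2 fold change -0.49, SE 0.103, edgeR FDR = 0.000175).

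The disulphide isomerases *Pdia3*, *Pdia4* and *Pdia6* and the BiP cofactors *Dnajb11*, *Dnajc3* and *Sdf2l1* were also called lower in XX. *Pdia4* was at 167, 193, 187 and 179 CPM in XX and 303, 361, 354 and 281 CPM in XY (log2 fold change -0.84, SE 0.092, edgeR FDR = 1.18e-10), with no overlap. *Dnajb11*, a J-domain partner of BiP, was at 52.1, 54.8, 46.5 and 57.7 CPM in XX and 116, 97.3, 102 and 98.7 CPM in XY and had the lowest fold change of the 14 (log2 fold change -0.96, SE 0.126, edgeR FDR = 1.5e-08). Every XY library held more than any XX library. *Sdf2l1*, a BiP cofactor, had a log2 fold change of -0.75, edgeR FDR = 0.000926. *Dnajc3* (-0.62, edgeR FDR = 1.66e-06), *Pdia3* (-0.64, edgeR FDR = 8.22e-05) and *Pdia6* (-0.64, edgeR FDR = 2.91e-07) had smaller differences. Each of these 3 calls was lost without XX 0 h replicate F5, when the log2 fold changes were -0.58, -0.57 and -0.57. Without that library 6 chaperones were called lower, and without any other single library 9 to 11 were. *Manf*, a secreted ER stress protein, was lower by FDR alone (-0.57, edgeR FDR = 2.22e-05) and was called without XX 0 h F2 or F3 or XY 0 h M5 or M6 (log2 fold change -0.67 to -0.59, edgeR FDR = 3.91e-06 to 9.77e-05). *Creld2* was also lower by FDR alone (-0.53, edgeR FDR = 0.00237) and was called without XY 0 h M6 (log2 fold change -0.65, edgeR FDR = 0.000273). *Hyou1*, the nucleotide exchange factor of BiP, did not pass the test (-0.35, edgeR FDR = 0.291).

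*Dnajb9*, another J-domain protein, which restrains IRE1, ran the other way, at 79.9, 61.4, 86 and 82.5 CPM in XX and 46.2, 55.8, 26.3 and 59.1 CPM in XY (log2 fold change 0.72, SE 0.168, edgeR FDR = 0.000707). All 4 XX libraries were above all 4 XY libraries. The call was lost without XY 0 h M5 (log2 fold change 0.5, edgeR FDR = 0.0173). Tested directly against a fold change of 1.5 with glmTreat, 3 chaperones were lower in XX and none was higher, and with voom and treat 2 and none. The shares of all genes called by these tests are not given, so the counts are not set against them.

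**Figure D1:**
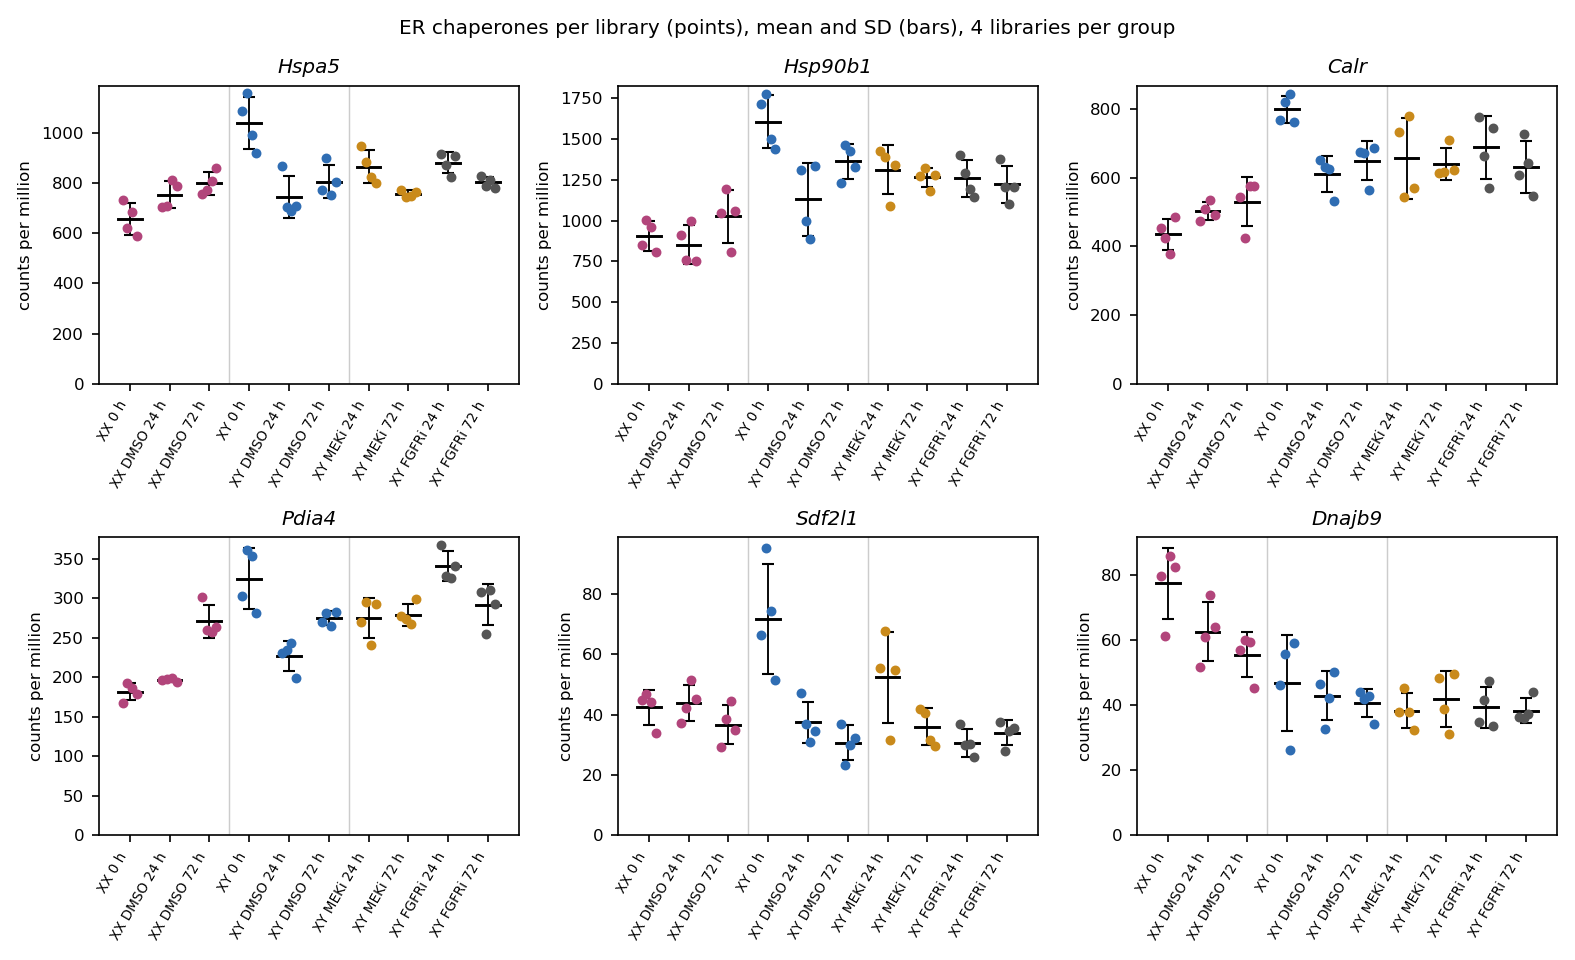
CPM of 6 ER chaperones in each library (points), with the group mean and SD (bars), for XX (pink) and XY DMSO or uncultured (blue), MEKi (ochre) and FGFRi (grey) groups. In *Hspa5*, *Hsp90b1*, *Calr*, *Pdia4* and *Sdf2l1* the uncultured XY libraries lie above all uncultured XX libraries, and *Dnajb9* shows the opposite order.

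Cell type markers differed between the uncultured sexes beside these genes. Sertoli markers, 6 of 6 of which were lower in XX, summed to 97.6 to 205 CPM in XX and 1584 to 1844 CPM in XY, with *Amh* at 0 in some XX libraries. Pre-granulosa markers (5 of 5 higher in XX) summed to 1049 to 1312 and 41.3 to 51.8 CPM. Foetal Leydig markers (3 of 4 tested lower) summed to 70.1 to 114 and 154 to 302 CPM. Endothelial markers (3 of 5 lower) came to 81.7 to 132 and 140 to 164 CPM and erythroid markers (2 of 6 lower) to 5091 to 9284 and 9004 to 11969 CPM. Germ cell markers (4 of 4 tested lower) summed to 63.2 to 97.8 and 179 to 305 CPM. Macrophage markers (0 of 5 tested called) summed to 30.2 to 61.9 and 50.3 to 69.3 CPM. The Sertoli sums also lay apart after 24 h with DMSO, at 102 to 131 CPM in XX and 842 to 1230.4 CPM in XY. At 72 h with DMSO they were 125 to 168 CPM in XX and 678 to 1168 CPM in XY. The part of these cell types in the chaperone difference before culture was not tested.

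Over the first 24 h of culture with DMSO, 10 of the 14 chaperones fell in XY cells, most by less than the fold threshold. In XY, 6 of the 33 genes were lower (5.5% of all tested genes) and 2 were higher (8.9% of all). Of the 14 chaperones, 3 were called lower and 10 passed at FDR alone (23.1% of all genes), all of them lower. Cultured and uncultured libraries did not overlap for 10 of the 14 (22.1% of all genes), with the cultured ones lower. The median log2 fold change of the 14 was -0.45, against 0.03 over all genes. Total counts without a composition factor moved that all-gene median to 0.163 and the split of member calls to 3 higher and 3 lower, and RLE size factors gave 1 higher and 6 lower.

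*Sdf2l1* fell most of the 14, from 66.2, 95, 74.1 and 51.3 CPM before culture to 47.1, 37, 31 and 34.6 CPM after 24 h (log2 fold change -0.94, SE 0.173, edgeR FDR = 3.86e-05). No cultured library reached the uncultured range. *Pdia3*, at 620.1, 642, 599 and 576 and then 457, 360.4, 282 and 432 CPM, also fell (log2 fold change -0.67, SE 0.128, edgeR FDR = 5.52e-05). It was lost without XY DMSO 24 h M4 (log2 fold change -0.54, edgeR FDR = 0.0017). *Pdia6* was close to the fold threshold (log2 fold change -0.59, SE 0.093, edgeR FDR = 2.14e-06). That call was lost without XY 0 h M2 or M3 or XY DMSO 24 h M3 or M4 (log2 fold change -0.56 to -0.55, edgeR FDR = 4.31e-05 to 5.55e-05). *Hspa5* was at 869, 705, 689.6 and 707 CPM after 24 h, below every uncultured XY library, and passed the FDR but not the fold threshold (log2 fold change -0.48, SE 0.089, edgeR FDR = 3.54e-05). *Hsp90b1* did likewise (-0.51, edgeR FDR = 0.000779), and was called without XY DMSO 24 h M5 (log2 fold change -0.59, edgeR FDR = 0.000195). Of the 14 chaperones, 1 library alone moved the number called lower to between 1, without XY DMSO 24 h M4, and 4, without XY DMSO 24 h M5.

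In XX cells the same 24 h gave 2 higher (5.46% of all tested genes), *Creld2* and *Derl3*, and 3 lower (2.27% of all), *Trib3*, *Asns* and *Phgdh*, among the 33. *Creld2*, which encodes an ER protein of the disulphide isomerase kind, was the chaperone called, at 45.3, 41.5, 31 and 44.1 CPM before and 61.7, 60.4, 62.4 and 71.2 CPM after (log2 fold change 0.63, SE 0.133, edgeR FDR = 0.000515). The call ended without XX 0 h F4 or XX DMSO 24 h F9 (log2 fold change 0.53 to 0.56, edgeR FDR = 0.00549 to 0.00699). All 4 cultured libraries were above the uncultured ones. *Dnajb11* and *Dnajc3* were higher at FDR alone (0.58, edgeR FDR = 0.00071 and 0.31, edgeR FDR = 0.0299). *Dnajb11* was called without XX 0 h F3 or F5 or XX DMSO 24 h F4 or F6 (log2 fold change 0.6 to 0.67, edgeR FDR = 0.00017 to 0.00248). The median of the 14 was 0.15, against 0.03 over all genes. *Hspa5* was at 704, 708, 810 and 789 CPM in XX after 24 h and overlapped its uncultured range (log2 fold change 0.2, SE 0.089, edgeR FDR = 0.155).

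The 24 h change differed between the sexes for 11 of the 33 genes, all with the larger value in XX (3.51% of all tested genes were called in that direction). This interaction compares the change in XX with the change in XY and is the same quantity as the shift of the XX against XY difference over that day. It was called for 9 of 14 chaperones, and 11 passed the FDR (4.06% of all genes). The difference before culture, the fall in XY and this interaction all use the same uncultured XY libraries and are not separate results. After 24 h with DMSO the 14 summed to 3959.9 to 4552 CPM in XX and 4180 to 5166 CPM in XY. The chaperone values, as differences of 2 log2 changes, were 0.99 for *Sdf2l1*, 0.76 for *Dnajb11*, 0.74 for *Dnajc3*, 0.68 for *Hspa5* (SE 0.126, edgeR FDR = 0.000175), 0.63 for *Pdia4*, 0.62 for *Creld2*, 0.62 for *Pdia3*, 0.6 for *Pdia6* and 0.59 for *Calr*. *Hspa5*, *Dnajb11*, *Dnajc3* and *Sdf2l1* were called whichever single library was left out. The other 5 were not. *Creld2* was lost without XX 0 h F4 or XX DMSO 24 h F9 or XY 0 h M2 or M3 or XY DMSO 24 h M3 (log2 fold change 0.52 to 0.56, edgeR FDR = 0.0757 to 0.105). *Pdia3* was lost without XX 0 h F5 or XX DMSO 24 h F4 or F6 or XY 0 h M2 or M3 or XY DMSO 24 h M3 or M4 (log2 fold change 0.47 to 0.6, edgeR FDR = 0.0517 to 0.121). *Pdia4* was lost without XY 0 h M3 or XY DMSO 24 h M5 (log2 fold change 0.57, edgeR FDR = 0.00239 to 0.00337). *Pdia6* was lost without XX 0 h F5 or XX DMSO 24 h F9 or XY 0 h M2 or M3 or XY DMSO 24 h M3 or M4 (log2 fold change 0.5 to 0.56, edgeR FDR = 0.00587 to 0.0165). *Calr* was lost without XX 0 h F3 or F4 or XX DMSO 24 h F5 or F6 or F9 or XY 0 h M3 or M5 or XY DMSO 24 h M4 or M5 (log2 fold change 0.52 to 0.58, edgeR FDR = 0.0178 to 0.0367). *Hsp90b1* (0.42, edgeR FDR = 0.123), *Hyou1* (0.5, edgeR FDR = 0.408) and *Dnajb9* (-0.17, edgeR FDR = 0.771) did not pass. *Manf* (0.51, edgeR FDR = 0.0225) and *Canx* (0.46, edgeR FDR = 0.0379) passed the FDR alone. Without XY 0 h M3 the called chaperones were 4, and with total counts without a composition factor they were also 4. With glmTreat and with voom and treat no chaperone was called.

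After 24 h with DMSO the chaperones had a median log2 fold change of XX against XY of -0.03. None of the 14 was called by edgeR, where 9.24% of all tested genes were called higher and 10.3% lower. At an unadjusted edgeR p below 0.05, 1 was higher and 3 were lower. *Hspa5* averaged 753 ± 54.5 CPM in XX and 743 ± 84.6 CPM in XY (SD, n = 4; log2 fold change 0.02, SE 0.089, edgeR FDR = 0.912). At FDR alone *Hsp90b1* (-0.41, edgeR FDR = 0.00548) and *Calr* (-0.28, edgeR FDR = 0.0488) were lower in XX and *Dnajb9* was higher (0.55, edgeR FDR = 0.00701). *Dnajb9* was called without XX DMSO 24 h F4 or XY DMSO 24 h M5 (log2 fold change 0.63, edgeR FDR = 0.00391 to 0.00425). The same 3 genes passed the FDR at 72 h in the same directions (-0.41, -0.29 and 0.45), and none of the 14 was called by edgeR (2 higher and 2 lower at an unadjusted p below 0.05). Between 24 h and 72 h edgeR called no chaperone in either sex (3 higher in XX, and 3 higher and 1 lower in XY, at an unadjusted p below 0.05). *Pdia4* was higher at 72 h by FDR alone in XX (0.46, edgeR FDR = 0.000235) and in XY (0.28, edgeR FDR = 0.0349), and *Dnajb11* was lower in XY (-0.5, edgeR FDR = 0.00277). No share over all genes is given beside the counts at an unadjusted p or at FDR alone in these comparisons.

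**Figure D2:**
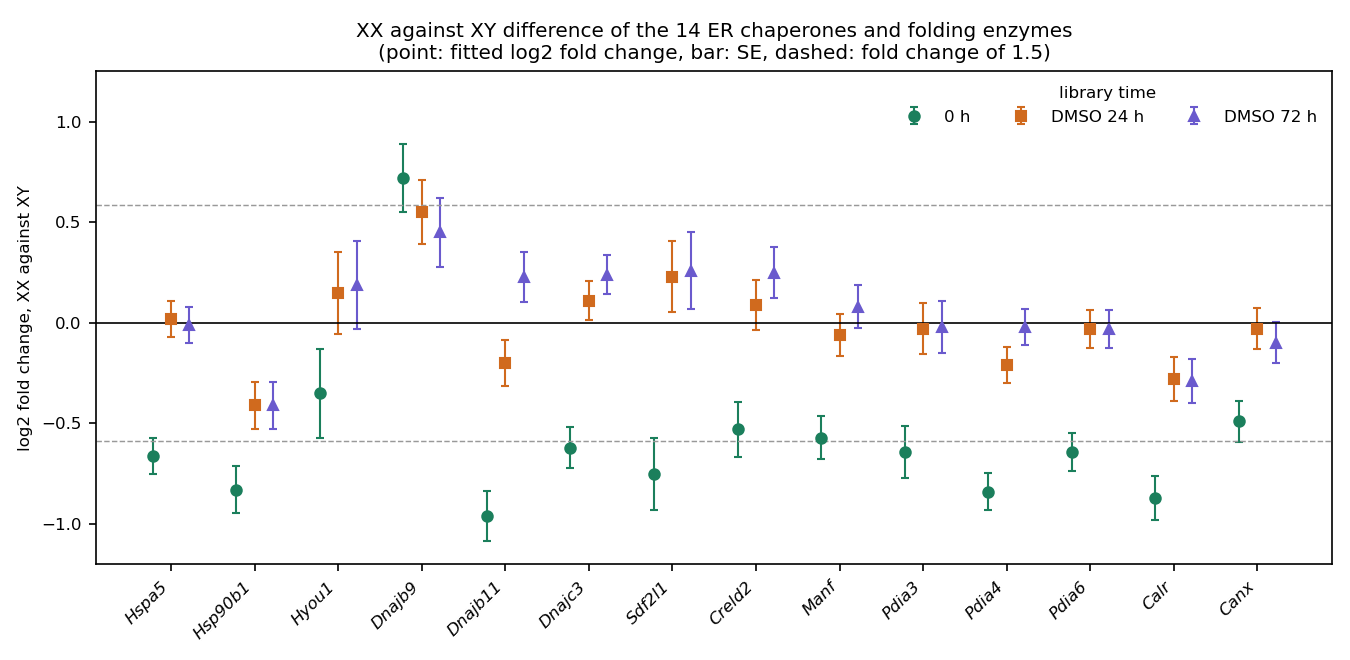
Fitted log2 fold change of XX against XY (points) with its SE (bars) for the 14 ER chaperones and folding enzymes, before culture and after 24 h or 72 h with DMSO, with dashed lines at a fold change of 1.5. The 0 h points lie below 0 for 13 of 14 genes and reach the lower line for 9, while at 24 h and 72 h no point passes either line.

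Erythroid markers changed with culture too. They summed to 2603 to 5532 CPM in XY and 755 to 2028 CPM in XX after 24 h with DMSO, and 6 of 6 were called lower than before culture in each sex. Sertoli markers in XY summed to 842 to 1230.4 CPM after 24 h (3 of 6 called lower). Foetal Leydig markers came to 634 to 941 CPM (3 of 4 tested called higher) and pre-granulosa markers to 83.1 to 93.3 CPM (4 of 5 higher). The gonadal soma markers, all 3 of them lower at FDR in XY and 1, *Nr5a1*, called, summed to 762 to 811 CPM before culture and 528 to 571 CPM after 24 h. Macrophage markers in XY (2 of 5 tested called lower) summed to 50.3 to 69.3 CPM before culture and 20.2 to 49.2 CPM after, and germ cell markers (1 of 4 tested lower) to 117 to 183 CPM. Their part in the chaperone change was not tested.

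Before culture 1 of the 5 genes of ER-associated degradation, *Derl3*, was called lower in XX, and the median log2 fold change was -0.02. *Derl3* encodes a derlin, a membrane protein of the channel through which misfolded proteins leave the ER (ENSMUSG00000009092.5, GRCm39 chr10:75729215-75731775, plus strand). It was at 6.41, 5.74, 6.97 and 5.65 CPM in uncultured XX and 18, 14.2, 14.3 and 9.13 CPM in uncultured XY (log2 fold change -1.17, SE 0.298, edgeR FDR = 0.00203), the XX libraries all being lower. In XX it then rose to 12.6, 12.1, 16.4 and 16.2 CPM at 24 h (log2 fold change 1.21, SE 0.289, edgeR FDR = 0.00246). It was at 18.3, 20.1, 17 and 23 CPM at 72 h, above the 24 h range but not past the test (log2 fold change 0.45, SE 0.249, edgeR FDR = 0.263). In XY it was at 15, 7.71, 9 and 5.83 CPM at 24 h, overlapping its uncultured range (log2 fold change -0.57, SE 0.264, edgeR FDR = 0.119). It then fell to 4.66, 3.48, 4.49 and 4.28 CPM at 72 h (log2 fold change -1.12, SE 0.308, edgeR FDR = 0.0103), values that rest on 14, 7, 9 and 9 counts. The 24 h change was called lower without XY DMSO 24 h M2 (log2 fold change -0.84, edgeR FDR = 0.023). The call of a fall by 72 h was lost without XY DMSO 24 h M2 (log2 fold change -0.85, edgeR FDR = 0.085).

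The order of the sexes for *Derl3* was opposite at 72 h, when every XX library was above every XY library (log2 fold change 2.18, SE 0.298, edgeR FDR = 4.59e-08). At 24 h they overlapped (log2 fold change 0.6, SE 0.255, edgeR FDR = 0.0736), although the gene was called higher in XX without XY DMSO 24 h M2 (log2 fold change 0.87, edgeR FDR = 0.0118). Its change differed between the sexes in the first 24 h (log2 fold change 1.77, SE 0.392, edgeR FDR = 0.00166) and from 24 h to 72 h (log2 fold change 1.57, SE 0.397, edgeR FDR = 0.0171). The second of these was the only call among the 33 genes for that interval (1.17% of all tested genes in that direction). It was lost without XY DMSO 24 h M2 (log2 fold change 1.31, edgeR FDR = 0.0702).

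*Herpud1*, a scaffold of the degradation complex, was at 35.4, 40.4, 33 and 37 CPM in uncultured XY and 53.1, 55.2, 50.8 and 61 CPM after 24 h (log2 fold change 0.59, SE 0.167, edgeR FDR = 0.00673). All cultured libraries were higher, but the fold was at the threshold. The call was lost without XY 0 h M2 or M5 or XY DMSO 24 h M5 (log2 fold change 0.54 to 0.57, edgeR FDR = 0.0206 to 0.029). *Sel1l*, the adaptor of the ubiquitin ligase, rose in XY as well, from 64.6, 70, 69.3 and 53 to 84.1, 126, 95.4 and 80.1 CPM (log2 fold change 0.6, SE 0.122, edgeR FDR = 0.000175), with no overlap. This call was lost without XY 0 h M6 or XY DMSO 24 h M3 (log2 fold change 0.44 to 0.51, edgeR FDR = 0.00318 to 0.00672). These 2 were the members called higher in XY at 24 h. *Syvn1*, the ligase itself, was the member called higher between 24 h and 72 h in XX (4.97% of all tested genes). It was at 13.3, 15.1, 26.1 and 21 CPM at 24 h and 30.5, 23.6, 31.6 and 26.1 CPM at 72 h, with overlap (log2 fold change 0.61, SE 0.2, edgeR FDR = 0.0337). This call was lost without XX DMSO 24 h F4 or F5 or XX DMSO 72 h F11 or F7 (log2 fold change 0.48 to 0.58, edgeR FDR = 0.0747 to 0.157). *Edem1*, a lectin that delivers glycoproteins for degradation, was called in no comparison, with group means of 13.1 to 21.5 CPM.

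Of the sensors and factors, *Ern1* was the only one called in any comparison. It encodes IRE1 (ENSMUSG00000020715.9, GRCm39 chr11:106283818-106378686, minus strand) and was low, at 9.4, 9.72, 11.6 and 17.3 CPM in uncultured XX and 2.05, 2.28, 4.3 and 3.91 CPM in uncultured XY (log2 fold change 1.91, SE 0.4, edgeR FDR = 0.000171). Counts were 22, 22, 15 and 46 in XX and 4, 4, 9 and 9 in XY, and the libraries did not overlap. XX was also higher at 24 h, at 13.3, 9.41, 10.2 and 18.6 against 7.84, 3.23, 5.17 and 6.61 CPM (log2 fold change 1.2, SE 0.328, edgeR FDR = 0.00391). At 72 h it was at 14.6, 13.6, 14 and 17.8 against 8, 9.94, 4.49 and 6.19 CPM (log2 fold change 1.05, SE 0.338, edgeR FDR = 0.0146). Every XX library was above every XY library at both times. The 72 h call was lost without XY DMSO 72 h M5 (log2 fold change 0.89, edgeR FDR = 0.0589). *Xbp1*, whose mRNA IRE1 splices, was lower in uncultured XX by FDR alone (log2 fold change -0.31, SE 0.106, edgeR FDR = 0.0259), and these gene counts do not separate its spliced form. *Atf6* and *Eif2ak3* were not called, with group means of 18.8 to 31.7 CPM for *Atf6* and 3.86 to 10.7 CPM for *Eif2ak3*. Within XX, *Atf6* was called higher after 24 h with DMSO than before culture without XX 0 h F5 (log2 fold change 0.76, edgeR FDR = 0.0135). *Eif2ak3* was called lower in XX than in XY at 72 h without XX DMSO 72 h F7 (log2 fold change -1.24, edgeR FDR = 0.0443).

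In the class of ATF4 and its targets there was no common direction before culture, when 2 of the 10 tested in this class were higher in XX (8.01% of all tested genes were) and 2 lower (9.32% of all), with a median log2 fold change of 0.09. Over the first 24 h, 3 fell and none rose in XX (2.27% of all fell, median -0.09) and in XY (5.5% of all fell, median -0.18). *Atf4* itself was called nowhere and had group means between 88.6 and 138 CPM. It was lower in XX than in XY at 72 h by FDR alone (log2 fold change -0.38, SE 0.132, edgeR FDR = 0.0246). ATF4 is controlled largely at translation, which RNA counts do not measure.

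*Asns*, asparagine synthetase (ENSMUSG00000029752.12, GRCm39 chr6:7671667-7728461, minus strand), was higher in uncultured XX, at 217, 221, 214 and 171 CPM, than in uncultured XY, at 121, 108, 87 and 105 CPM (log2 fold change 0.97, SE 0.161, edgeR FDR = 3.66e-06). Every XX library was above the XY range. It fell over the first 24 h in both sexes, to 92.9, 123, 96.2 and 138 CPM in XX (log2 fold change -0.86, SE 0.158, edgeR FDR = 6.3e-05). In XY it fell to 77.7, 50.5, 65.3 and 64.5 CPM (log2 fold change -0.71, SE 0.166, edgeR FDR = 0.00103). XX was still higher, without overlap (log2 fold change 0.81, SE 0.163, edgeR FDR = 7.33e-05). By 72 h XX had fallen further, to 44.6, 83.3, 63.2 and 56.4 CPM (log2 fold change -0.87, SE 0.169, edgeR FDR = 0.000168). It was the member called lower over that interval in XX (3.17% of all tested genes). XY was at 57, 73.6, 73.8 and 41.4 CPM, and *Derl3* was the member called lower over that interval in XY (3.03% of all). The sexes then overlapped for *Asns* (log2 fold change 0.01, SE 0.178, edgeR FDR = 0.981). The difference between the sexes in this later change did not pass the test (log2 fold change -0.81, SE 0.241, edgeR FDR = 0.0637). It was called without XX DMSO 24 h F4 or XX DMSO 72 h F4 or XY DMSO 24 h M2 or XY DMSO 72 h M6 (log2 fold change -0.95 to -0.88, edgeR FDR = 0.021 to 0.0447).

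*Psat1* and *Phgdh*, consecutive enzymes of serine synthesis, were lower in uncultured XX. *Phgdh* was at 148, 142, 106 and 112 CPM in XX and 249, 193, 189 and 199.6 CPM in XY (log2 fold change -0.7, SE 0.143, edgeR FDR = 0.000114). It fell in both sexes over 24 h (-0.71, edgeR FDR = 0.000466 in XX and -0.77, edgeR FDR = 2.78e-05 in XY). In each case the libraries did not overlap. It was still lower in XX at 24 h (-0.64, edgeR FDR = 0.000453), the 1 member called in that direction (10.3% of all tested genes). The call ended without XX DMSO 24 h F6 or XY DMSO 24 h M2 (log2 fold change -0.56 to -0.52, edgeR FDR = 0.00436 to 0.00719). *Psat1* was at 58.9, 50.8, 38 and 44.9 CPM in XX and 80, 76.2, 73.6 and 72.6 CPM in XY (log2 fold change -0.63, SE 0.183, edgeR FDR = 0.00698). It was lost without XX 0 h F4 (log2 fold change -0.56, edgeR FDR = 0.0302). It fell in XY over 24 h, to 51, 36.8, 57.7 and 34.2 CPM (log2 fold change -0.74, SE 0.176, edgeR FDR = 0.00135). In XX it was at 46.3, 73.5, 50.3 and 77.5 CPM, overlapping its uncultured range (log2 fold change 0.35, SE 0.181, edgeR FDR = 0.215). Its change differed between the sexes (log2 fold change 1.09, SE 0.253, edgeR FDR = 0.00285). It was the only ATF4 target with a called difference of that kind, and was called whichever single library was left out.

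*Slc7a11* encodes the cystine and glutamate exchanger and *Slc3a2* the heavy chain that it shares with other amino acid transporters. *Slc7a11* was near the limit of detection, with 33, 17, 7 and 20 counts in uncultured XX and 5, 0, 1 and 0 in uncultured XY (log2 fold change 3.48, SE 0.669, edgeR FDR = 4.65e-05). All XX libraries were above all XY libraries, but the size of the fold rests on the low XY counts. At 24 h the counts were 19, 11, 10 and 19 in XX and 2, 8, 7 and 4 in XY (log2 fold change 1.87, SE 0.553, edgeR FDR = 0.00776). At 72 h the CPM values overlapped (log2 fold change -0.23, SE 0.673, edgeR FDR = 0.842). The change between 24 h and 72 h in XX did not pass the test (log2 fold change -1.59, SE 0.589, edgeR FDR = 0.0684), though it was called without XX DMSO 24 h F5 (log2 fold change -1.84, edgeR FDR = 0.0454). *Slc3a2* was called in no comparison, with group means of 148 to 239 CPM.

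At 24 h with DMSO, 5 of the 33 genes were higher in XX (9.24% of all tested genes), namely *Ern1*, *Asns*, *Sesn2*, *Ppp1r15a* and *Slc7a11*. At 72 h 3 were (9.47% of all), namely *Derl3*, *Ern1* and *Sesn2*. *Ppp1r15a*, which encodes GADD34 and recruits the phosphatase that restores eIF2, was at 103, 125, 131 and 110.3 CPM in XX and 68.5, 86.7, 74.3 and 67.7 CPM in XY at 24 h without overlap (log2 fold change 0.65, SE 0.148, edgeR FDR = 0.000488). At 72 h it passed the FDR alone (0.53, edgeR FDR = 0.00479) and was called without XX DMSO 72 h F4 or XY DMSO 72 h M2 (log2 fold change 0.65 to 0.67, edgeR FDR = 0.000288 to 0.00149). *Sesn2*, a sestrin that senses leucine and restrains mTORC1, was at 11.2, 19.3, 19.8 and 29.3 CPM in XX and 10.7, 14.9, 16.1 and 7 CPM in XY at 24 h. The sexes overlapped and the FDR was at the edge of the threshold (log2 fold change 0.65, SE 0.253, edgeR FDR = 0.0495). It was lost without XX DMSO 24 h F5 or F6 or F9 or XY DMSO 24 h M2 or M5 (log2 fold change 0.4 to 0.66, edgeR FDR = 0.0771 to 0.32). At 72 h it was at 15.5, 10.6, 21.2 and 17.8 CPM in XX and 11.3, 9.94, 8.98 and 6.19 CPM in XY, again with overlap (log2 fold change 0.85, SE 0.29, edgeR FDR = 0.0222). This call was lost without XX DMSO 72 h F7 or XY DMSO 72 h M6 (log2 fold change 0.67 to 0.7, edgeR FDR = 0.0875 to 0.126).

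Among the remaining ATF4 targets, *Trib3*, a pseudokinase, fell in XX over 24 h, at 8, 11, 10 and 12 counts before and 5, 4, 3 and 2 counts after (log2 fold change -1.97, SE 0.602, edgeR FDR = 0.0227). Its CPM values did not overlap, but the call was lost without XX 0 h F4 or XX DMSO 24 h F5 or F9 (log2 fold change -1.85 to -1.77, edgeR FDR = 0.0643 to 0.0733). In XY the change did not pass the test (log2 fold change -1.37, SE 0.56, edgeR FDR = 0.0684), though it was called without XY 0 h M5 or XY DMSO 24 h M5 (log2 fold change -1.69 to -1.65, edgeR FDR = 0.0353 to 0.0396). *Ddit3*, which encodes CHOP, was called nowhere, with group means of 17.3 to 32.5 CPM. *Chac1*, a glutathione-degrading enzyme, had group means of 0.194 to 3.66 CPM, too low for a statement.

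**Figure D3:**
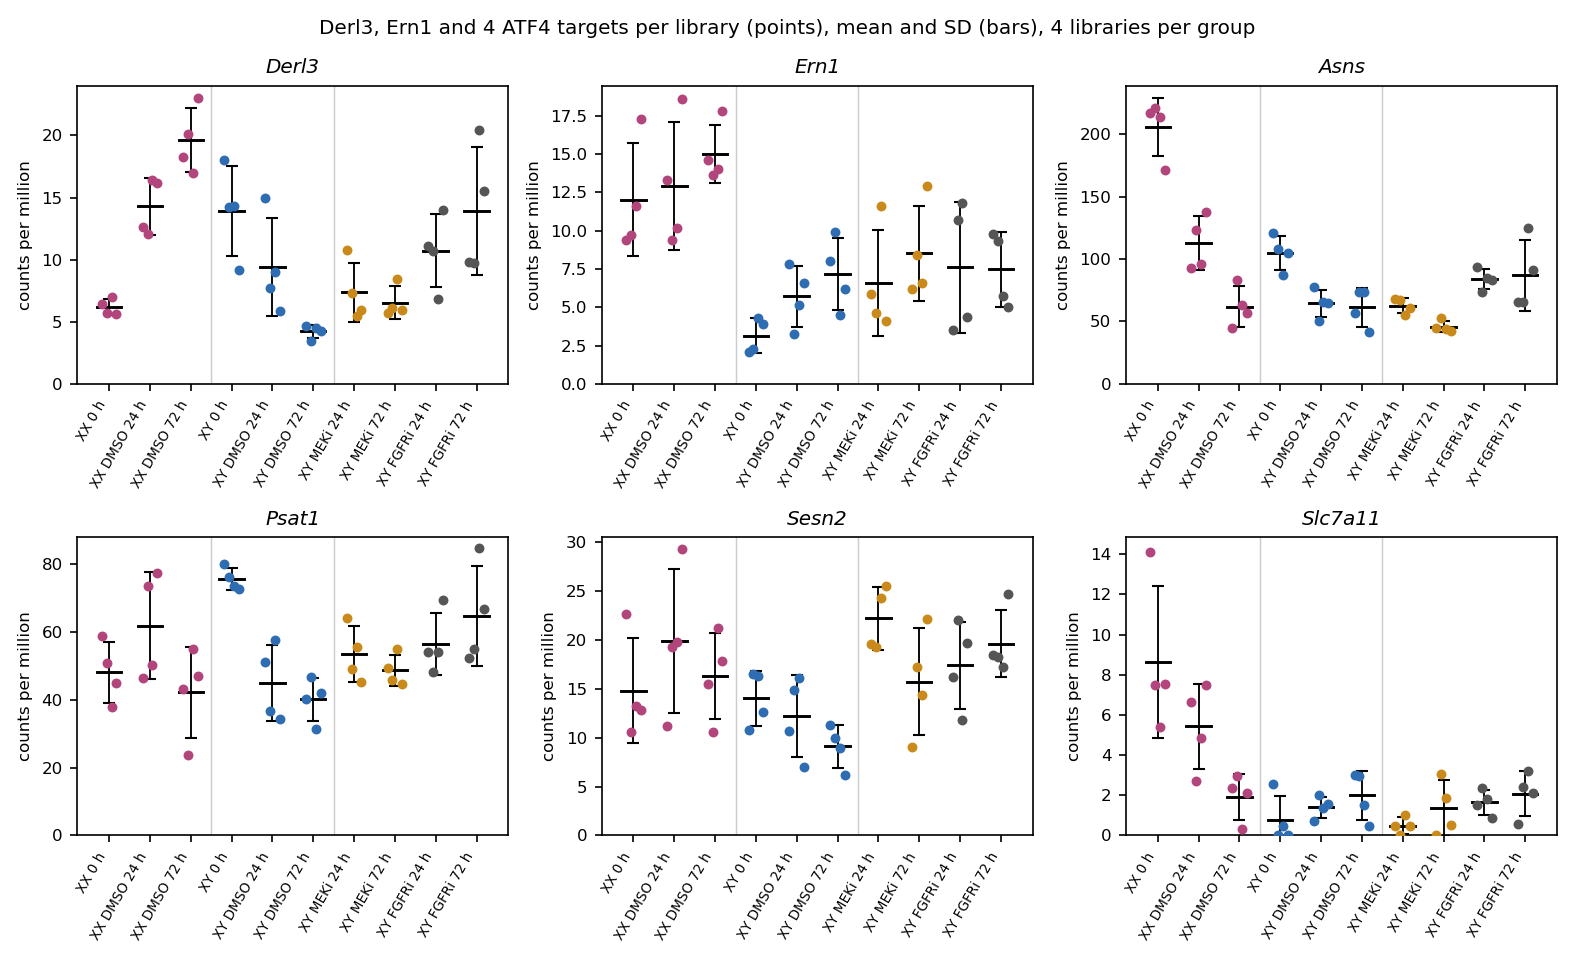
CPM of *Derl3*, *Ern1* and 4 ATF4 targets in each library (points), with the group mean and SD (bars) for each of the 10 groups. *Derl3* rises with culture in XX and falls in XY DMSO, *Ern1* is higher in XX at every time, and *Asns* is highest in uncultured XX.

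With MEKi, 0 of the 33 genes were called at 24 h (3.27% of all tested genes were called in either direction) and 0 at 72 h (6.47% of all). Before adjustment, edgeR gave p below 0.05 for 8 genes higher and 1 lower at 24 h (16% of all genes in either direction) and for 5 higher and 1 lower at 72 h (26.1% of all). At 24 h 13 of the 14 chaperones had a positive log2 fold change, with a median of 0.24 against -0.01 over all genes, and none passed the FDR. *Hspa5* was at 948, 884, 823 and 800 CPM with MEKi and 869, 705, 689.6 and 707 CPM with DMSO (log2 fold change 0.22, SE 0.089, edgeR FDR = 0.181), with overlap. At 72 h the chaperone median was 0.07. DESeq2 called 1 of the 33 genes at 24 h, *Sesn2*, and 0 at 72 h, and voom with treat called 0 at both.

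*Sesn2* had the largest positive MEKi value at 24 h, at 19.6, 19.3, 24.3 and 25.5 CPM against 10.7, 14.9, 16.1 and 7 CPM, without overlap (log2 fold change 0.83, SE 0.257, edgeR FDR = 0.0507). It did not pass the test, but was called without XY DMSO 24 h M4 (log2 fold change 1, edgeR FDR = 0.0341), and with DESeq2, RLE size factors, no filter on low counts and only the libraries of the groups compared. *Sdf2l1* was called without XY MEKi 24 h M4 (log2 fold change 0.67, edgeR FDR = 0.0135). At 72 h *Slc3a2* passed the FDR alone (log2 fold change 0.34, SE 0.106, edgeR FDR = 0.0301), at 243, 220.1, 237 and 257 CPM with MEKi and 180.3, 182, 203 and 192 CPM with DMSO, with every MEKi library higher. *Herpud1* and *Sesn2* were each called at 72 h when 1 library was left out, *Herpud1* without XY DMSO 72 h M4 (log2 fold change 0.63, edgeR FDR = 0.0119) and *Sesn2* without XY MEKi 72 h M2 (log2 fold change 0.93, edgeR FDR = 0.0388). No difference of the MEKi effect between 72 h and 24 h passed the edgeR test among the 33 genes (1.41% of all tested genes were called). Unadjusted p was below 0.05 for 2 higher and 3 lower (13.5% of all). DESeq2 and voom with treat also called 0 of them.

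With FGFRi at 72 h, 3 of the 33 genes were higher than with DMSO (0.866% of all tested genes were) and none was lower. With glmTreat and with voom and treat none of the 33 was called. *Derl3* was at 9.79, 9.72, 20.4 and 15.5 CPM with FGFRi and 4.66, 3.48, 4.49 and 4.28 CPM with DMSO (log2 fold change 1.71, SE 0.305, edgeR FDR = 0.000544), and every FGFRi library was higher. *Sesn2* was at 18.4, 18.2, 17.2 and 24.7 CPM with FGFRi and 11.3, 9.94, 8.98 and 6.19 CPM with DMSO (log2 fold change 1.09, SE 0.284, edgeR FDR = 0.0245), without overlap. *Psat1* was at 52.4, 55.1, 84.8 and 66.7 CPM with FGFRi and 40.3, 46.7, 31.4 and 41.9 CPM with DMSO (log2 fold change 0.7, SE 0.185, edgeR FDR = 0.0258), also without overlap. *Derl3* was called whichever single library was left out, with log2 fold changes of 1.45 to 1.86. The *Sesn2* call was lost without XY DMSO 72 h M6 or XY FGFRi 72 h M5 or M6 (log2 fold change 0.95 to 1.15, edgeR FDR = 0.0544 to 0.11). The *Psat1* call was lost without XY DMSO 72 h M2 or M5 or M6 or XY FGFRi 72 h M5 or M6 (log2 fold change 0.54 to 0.73, edgeR FDR = 0.0552 to 0.251). *Asns* did not pass the test (log2 fold change 0.52, SE 0.172, edgeR FDR = 0.0939), and was called without XY FGFRi 72 h M2 or M4 (log2 fold change 0.63 to 0.64, edgeR FDR = 0.0354 to 0.0373). The chaperones had a median of 0.01 and none was called by edgeR or DESeq2 (1 higher at an unadjusted p below 0.05, with no share over all genes given).

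Macrophage markers were lower with FGFRi at 72 h beside these genes, 5 of 5 tested, at 10.1 to 21.1 CPM in sum against 36.6 to 114 CPM with DMSO. Sertoli markers summed to 1081 to 1971 against 678 to 1168 CPM with none of 6 called. Endothelial markers were lower with MEKi (5 of 5 at 24 h, in sum 31.9 to 43.8 against 138 to 206 CPM, and 4 of 5 at 72 h). With MEKi at 24 h germ cell markers (3 of 4 tested higher) summed to 245 to 485 CPM against 117 to 183 CPM with DMSO. At 72 h MEKi had 3 of 6 Sertoli markers lower, in sum 441 to 653 CPM, 5 of 5 tested macrophage markers lower and 3 of 4 tested foetal Leydig markers higher. Between MEKi and FGFRi at 72 h 5 of 6 Sertoli markers were lower with MEKi. Their part in these values was not tested.

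FGFRi at 24 h gave 0 calls among the 33 genes (3.27% of all tested genes in either direction), with unadjusted edgeR p below 0.05 for 4 higher and 1 lower (17.3% of all). *Pdia4* was higher by FDR alone, at 367, 328, 326 and 340.5 CPM against 230.3, 235, 243 and 199 CPM with DMSO (log2 fold change 0.58, SE 0.089, edgeR FDR = 1.65e-05). Every FGFRi library was above the DMSO libraries, which came from the other library pool. The gene was called with RLE size factors and without XY DMSO 24 h M3 or M4 or XY FGFRi 24 h M3 or M4 (log2 fold change 0.6 to 0.61, edgeR FDR = 4.48e-05 to 5.91e-05). DESeq2 and voom with treat called 0 of the 33. Beside these values, germ cell markers (3 of 4 tested lower with FGFRi at 24 h) summed to 22.6 to 65.6 CPM against 117 to 183 CPM with DMSO. Macrophage markers (2 of 5 tested lower) summed to 7.14 to 16.2 against 20.2 to 49.2 CPM, and Sertoli markers (1 of 6 higher) to 1227 to 1742 against 842 to 1230.4 CPM. Their part in the *Pdia4* value was not tested.

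The 2 inhibitors, which differ in target and were used at the same dose, were compared directly at 72 h. With MEKi, 2 of the 33 genes were lower than with FGFRi (4.69% of all tested genes) and 0 were higher. *Asns* was at 45, 52.4, 43.6 and 42.1 CPM with MEKi and 65.6, 65.6, 125 and 91.4 CPM with FGFRi (log2 fold change -0.94, SE 0.176, edgeR FDR = 0.000144). *Derl3* was at 5.69, 6.11, 8.48 and 5.93 CPM with MEKi and 9.79, 9.72, 20.4 and 15.5 CPM with FGFRi (log2 fold change -1.07, SE 0.281, edgeR FDR = 0.00799). In both genes the MEKi libraries were all lower, and the *Derl3* call was lost without XY FGFRi 72 h M5 (log2 fold change -0.82, edgeR FDR = 0.11). *Phgdh* passed the FDR alone (-0.48, edgeR FDR = 0.0283) and was called without XY MEKi 72 h M4 (log2 fold change -0.6, edgeR FDR = 0.0106). *Herpud1* was higher with MEKi by FDR alone (0.48, edgeR FDR = 0.0432). *Psat1* (-0.42, edgeR FDR = 0.145) and *Sesn2* (-0.33, edgeR FDR = 0.48), which were called with FGFRi against DMSO, did not pass this direct test.

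**Figure D4:**
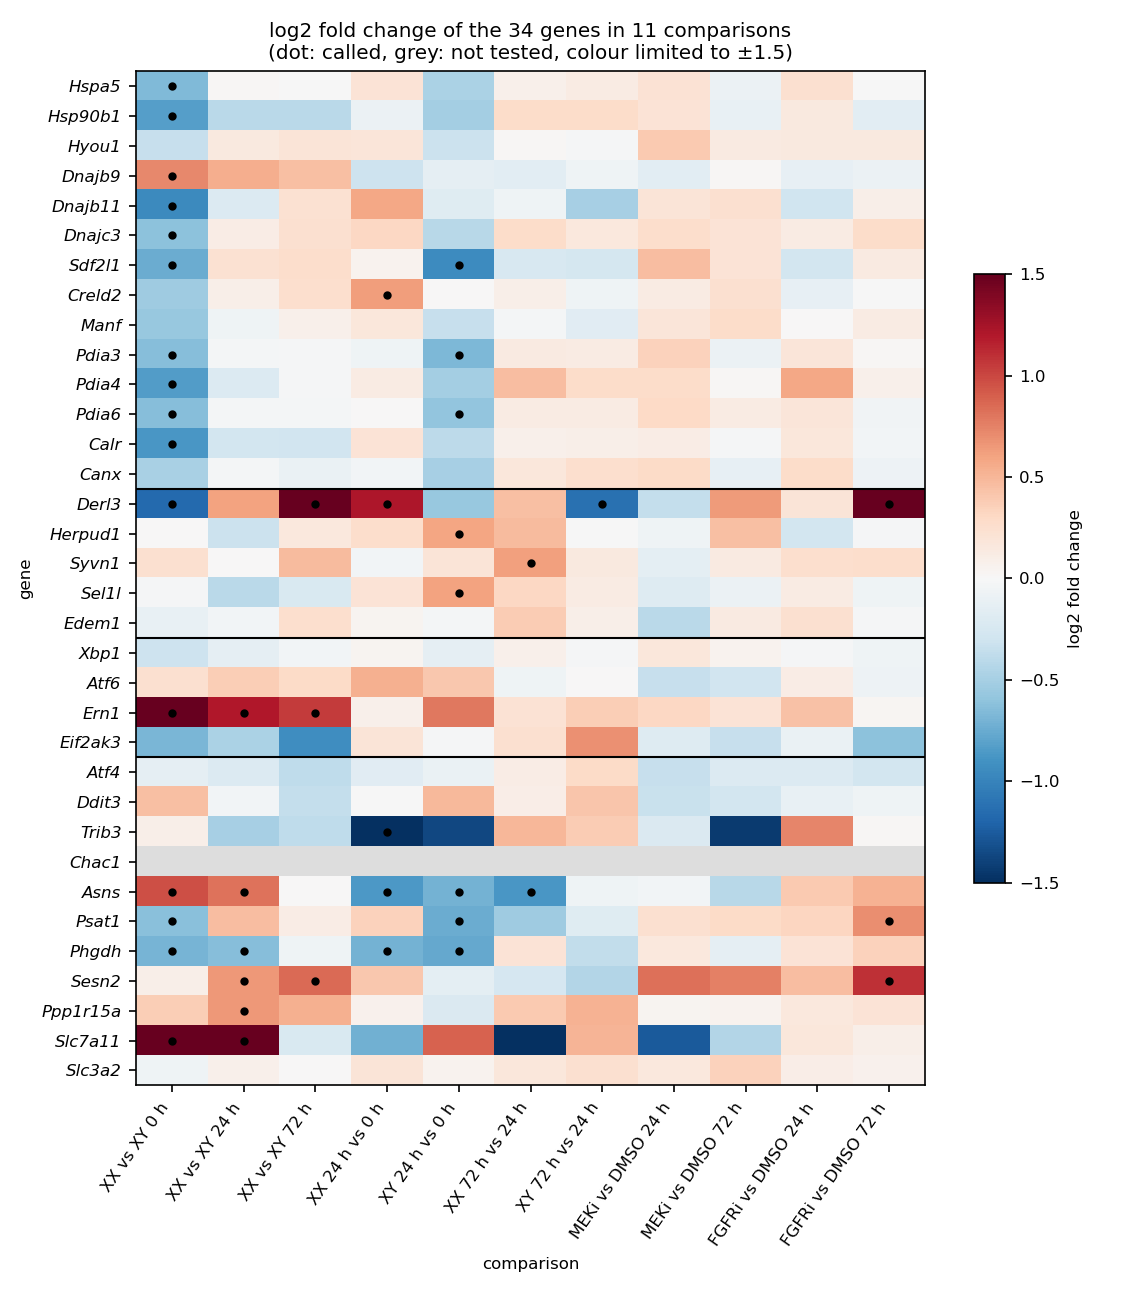
Fitted log2 fold change of the 34 genes (one line each, in their 4 classes) in 11 comparisons, with colour limited to ±1.5, a dot for a called gene and grey for *Chac1*, which was not tested. Apart from *Dnajb9*, the chaperones show mostly lower values in the XX against XY comparison at 0 h and in XY at 24 h against 0 h, and the calls with MEKi are 0.

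Other genes of the same pathways, listed by function, were tested beside the members. These lists too were made with earlier results of these data known. Of 36 further genes of ER protein quality control, 7 were lower (9.32% of all tested genes were) and 2 higher (8.01% of all) in uncultured XX, with a median of -0.26. *Ero1a*, an oxidase that recharges the disulphide isomerases, was lower (log2 fold change -1.25, edgeR FDR = 7e-07), and *Nucb2* (1.93, edgeR FDR = 1.68e-16) and *Wfs1* (1.72, edgeR FDR = 1.1e-06) were higher. In XY over 24 h 1 of the 36 was higher (8.9% of all tested genes) and 1 lower (5.5% of all), with *Ero1a* again lower (-1.28, edgeR FDR = 3.23e-07). The interaction was called for *Ero1a* (0.88, edgeR FDR = 0.0403) and, in the other direction, *Nucb2* (-0.62, edgeR FDR = 0.0389).

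Of 39 further amino acid response genes tested, 3 were higher and 5 lower in uncultured XX, with a median of -0.1. These shares were near the 8.01% higher and 9.32% lower of all tested genes. *Stc2* was among the lower (-1.65, edgeR FDR = 4.44e-08), as was *Jdp2* (-2.11, edgeR FDR = 0.0212), and *Cth*, an enzyme of cysteine synthesis, was higher (1.87, edgeR FDR = 0.00345). The first 24 h differed between the sexes for 3 of the 39 (3.51% of all tested genes in that direction), *Stc2* (2.42, edgeR FDR = 7.22e-08), *Nupr1* (2.32, edgeR FDR = 0.000251) and *Ddit4* (0.86, edgeR FDR = 0.014). With FGFRi at 72 h 0 of the 39 were called (3 at an unadjusted p below 0.05, with no share over all genes given). Beside these, 12 chaperones of the cytosol and mitochondria had a median of 0.1 in uncultured XX against XY, where 1, *Bag3*, was higher (1.78, edgeR FDR = 2.59e-15) and 0 were lower. Summed over the 12, levels in XY were also lower after 24 h with DMSO, at 2696 to 3776 CPM against 4009.5 to 4499 CPM before culture. In XX the sums were 3315 to 3906 CPM after 24 h and 3729 to 4373 CPM before. The difference between this list and the ER chaperones was not tested. Of the 3 other eIF2 kinases, *Eif2ak2* was higher in uncultured XX (0.8, edgeR FDR = 0.00018).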

How the data were processed

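Libraries were 3′ RNA-seq libraries of sorted somatic cells carrying unique molecular identifiers (UMIs). Per the labels and the study's methods, the authors used Rsubread for alignment (GRCm39) and scPipe for exon assignment and UMI collapsing, and deposited whole-number counts per gene and library. Groups came from library names, and each of the 40 libraries pooled gonads, so p-values measure the spread between such pools. Library totals were 1380707 to 4836550.

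Counts were tested with edgeR 4.0.16 in R 4.3.3 (filterByExpr, 15125 genes, TMM, quasi-likelihood fit with 10 group means, Benjamini-Hochberg FDR below 0.05 and fold change of at least 1.5). CPM are TMM-scaled. Alternatives were RLE size factors, no composition factor (library totals alone), no filter on low counts, at least 1 CPM in 4 libraries, DESeq2 1.42.0, glmTreat against 1.5, voom with quality weights and treat (limma 3.58.1, the test the study names), only the groups compared, a replicate block and each library left out. A fit of only the libraries of the same time was chosen after seeing the data. All 34 members are named, and of each other list at most the 3 called genes with the largest change. Members and lists were chosen with earlier results of these data known. Symbols were matched through GENCODE M39 (40391 of 42422 identifiers, 98.98% of counts), and gene coordinates are GRCm39. Motifs were searched on both strands of RefSeq promoter windows of 300 bases (GRCm38.p6).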

Additional observations from a re-analysis of the deposited data

Results flagged for a closer look

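In 14 of the 316 combinations of gene and group tested, 1 of the 4 libraries stood apart from the rest by Dixon's criterion, and chance gives about 1 in 20. *Hspa5* was at 869 CPM in XY DMSO 24 h M2 against 689.6 to 707 CPM in the other libraries. In XY MEKi 24 h M6, *Hyou1* was at 27.4 CPM where the other libraries had 24.5 to 24.7 CPM. *Dnajb9* was at 44 CPM in XY FGFRi 72 h M6 against 36.1 to 37.2 CPM in the other libraries. In XY MEKi 24 h M1, *Dnajb11* was at 122 CPM where the other libraries had 97 to 100.4 CPM. *Dnajb11* was at 53.5 CPM in XY FGFRi 72 h M2 against 72.3 to 74.2 CPM in the other libraries. In XX DMSO 72 h F11, *Pdia4* was at 302 CPM where the other libraries had 258 to 264 CPM. *Pdia6* was at 454 CPM in XY DMSO 72 h M2 against 548 to 564 CPM in the other libraries. In XY DMSO 72 h M5, *Calr* was at 563 CPM where the other libraries had 671 to 687 CPM. *Calr* was at 710.2 CPM in XY MEKi 72 h M4 against 613 to 621 CPM in the other libraries. In XY MEKi 72 h M4, *Derl3* was at 8.48 CPM where the other libraries had 5.69 to 6.11 CPM. *Herpud1* was at 55.7 CPM in XY MEKi 24 h M1 against 51.5 to 51.8 CPM in the other libraries. In XX 0 h F5, *Asns* was at 171 CPM where the other libraries had 214 to 221 CPM. *Sesn2* was at 24.7 CPM in XY FGFRi 72 h M6 against 17.2 to 18.4 CPM in the other libraries. In XY MEKi 24 h M6, *Ppp1r15a* was at 88 CPM where the other libraries had 71.7 to 74.3 CPM.

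The change over the first 24 h of culture differed between XX and XY by the interaction test for 11 genes, as values of XX minus XY on the log2 scale. For the chaperones these were 0.68 for *Hspa5*, 0.76 for *Dnajb11*, 0.74 for *Dnajc3*, 0.99 for *Sdf2l1*, 0.62 for *Creld2*, 0.62 for *Pdia3*, 0.63 for *Pdia4*, 0.6 for *Pdia6* and 0.59 for *Calr*. *Derl3* had 1.77 and *Psat1* 1.09. Between 24 h and 72 h *Derl3* differed by 1.57. In 5 of the 11 genes, *Creld2*, *Pdia3*, *Pdia4*, *Pdia6* and *Calr*, the call was lost when 1 library was left out, as given above.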

How the results depend on the processing

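Of the values for single genes under the alternatives, 8918 kept their side of the threshold, 211 no longer passed and 55 newly passed. Where either fit made a call, 0 reversed direction. Genes called in neither fit were counted as kept whatever their sign. The number of the 33 genes called was most affected by testing directly against a fold change of 1.5. With glmTreat it was 6 for XX against XY before culture, 1 at 24 h and 1 at 72 h, 1 for the difference between the sexes over the first 24 h, and 0 for the changes over 24 h in XY and XX, from 24 h to 72 h in XY and XX, for FGFRi at 72 h, for MEKi against FGFRi and for the later difference between the sexes. With voom and treat it was 3 for XX against XY before culture, 0 at 24 h, 1 at 72 h and 0 for the others just named. The fold threshold lies inside the test there, so genes near 1.5 fold no longer pass. Shares of all genes called under the alternatives are not given, so the counts in this section are not set against them.

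With RLE size factors, no filter on low counts, DESeq2, only the groups compared or the replicate block, MEKi at 24 h gave 1 (*Sesn2*), and RLE size factors gave 1 for FGFRi at 24 h (*Pdia4*). From 24 h to 72 h in XX, no filter and only the groups compared each gave 1. Total counts without a composition factor gave 6 for the difference between the sexes over the first 24 h, and no filter gave 3 for the later one. The cause was not tested.

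Leaving out 1 library at a time gave 6 to 9 called genes for XY over 24 h, 3 to 7 for XX over 24 h, 0 to 2 for XY and 1 to 3 for XX from 24 h to 72 h, 13 to 18 for XX against XY before culture, 4 to 7 at 24 h and 2 to 4 at 72 h, 0 to 1 for MEKi at 24 h and at 72 h, 1 to 4 for FGFRi at 72 h, 0 to 1 for FGFRi at 24 h, 1 to 3 for MEKi against FGFRi, 6 to 11 and 1 to 2 for the 2 differences between the sexes, and 0 for the change of the MEKi effect.

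Libraries with the same number in 2 groups had correlations of -0.156 to 0.116, and those with different numbers -0.168 to 0.183. The numbers were therefore not taken to pair libraries. For FGFRi against DMSO at 72 h, where all 4 numbers matched, same-number correlations were 0.002 to 0.116 and the others -0.134 to 0.111. With the replicate block, XX over 24 h gave 1 called gene, XY over 24 h 6, XY from 24 h to 72 h 1, MEKi 1 at 24 h and 0 at 72 h, FGFRi 0 at 24 h and 3 at 72 h, MEKi against FGFRi 2 and the change of the MEKi effect 0. No paired analysis was possible because the groups shared fewer than 2 numbers for XX against XY and for 72 h against 24 h in XX. Depth limits *Chac1*, *Slc7a11*, *Trib3*, *Ern1*, *Eif2ak3* and *Derl3*, which had fewer than 10 counts in at least 1 library. For *Derl3* these libraries include 3 of the 4 of XY DMSO at 72 h, the group behind its differences between the sexes and with FGFRi at that time.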

Other observations

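After 24 h with DMSO, 9.24% of all tested genes were higher and 10.3% lower in XX than in XY, and the lists of other stress genes are read beside these shares. Of 39 other amino acid response genes tested, 5 were higher and 2 lower in XX, among them *Cth* (1.43, SE 0.536, edgeR FDR = 0.0399), *Nupr1* (1.33, SE 0.237, edgeR FDR = 1.07e-05) and *Vldlr* (-2.03, SE 0.303, edgeR FDR = 2.86e-07), given as log2 fold changes. Of 36 other ER quality control genes 4 were higher and 2 lower, with *Wfs1* (2.27, SE 0.212, edgeR FDR = 5.19e-13), *Nucb2* (1.31, SE 0.133, edgeR FDR = 8.91e-12) and *Ero1b* (0.99, SE 0.34, edgeR FDR = 0.0245) higher. Of 12 chaperones of the cytosol and mitochondria 3 were higher and 1 lower, with *Bag3* (1.62, SE 0.131, edgeR FDR = 5.4e-15) and *Hspa4l* (1.28, SE 0.403, edgeR FDR = 0.0132) higher and *Hspa1a*, an inducible HSP70, lower (-1.43, SE 0.367, edgeR FDR = 0.002). *Hspa1a* had fallen in XX over the first 24 h (-1.52, SE 0.385, edgeR FDR = 0.00439), and that change differed between the sexes (-2.15, SE 0.525, edgeR FDR = 0.00513).

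With MEKi against FGFRi at 72 h, 2 of the 39 amino acid response genes were higher and 3 lower (4.69% of all tested genes were lower, and the share higher is not given). The transporters *Slc7a5* (-1.09, SE 0.288, edgeR FDR = 0.0084) and *Slc7a1* (-0.91, SE 0.186, edgeR FDR = 0.000503) and the transcription factor *Atf3* (-1.15, SE 0.287, edgeR FDR = 0.00508) were the lower ones. With FGFRi against DMSO at 72 h, *Hspb1*, a small heat shock protein, was higher (0.81, SE 0.155, edgeR FDR = 0.00148).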
